A study of Mus musculus with 16 samples.

Results

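Side population cells of the mouse heart were compared with mesenchymal stem cells (MSC) of the bone marrow over all genes on the array. The members were the 2 arrays whose titles name cardiac SP cells and the 3 whose titles name bone marrow MSC, so 5 of the 16 arrays of the series. Expression was read for 17710 genes. All groups came from C57BL/6 mice with a genotype given as normal, and no age, treatment or number of animals is given in the sources used here. Heart side population cells had been picked by an assay of Hoechst dye efflux. MSC had been isolated from bone marrow and were harvested after 5 passages in culture. The labels list one growth protocol for every sample, on Matrigel-coated dishes in mTeSR medium, so they do not separate cultured from freshly sorted cells. The origin of the replicates, from different mice or dishes or from 1 pool, is not stated. The p-values therefore measure only a spread between arrays, estimated over all 16 arrays of the series. Heart Sca1 cells (3 arrays), another heart population of the series, were used to place some results.

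A side population is a cell fraction that pumps out a DNA dye through transporters of the ATP-binding cassette (ABC) family, of which ABCG2 is the best known in heart and marrow. The method selects a transport activity and not a lineage, and in the heart such fractions have been described with stromal and endothelial members. MSC are plastic-adherent stromal cells of the marrow that can form bone, fat and cartilage cells. Cultures of mouse marrow are known to carry macrophages along with the stromal cells, and for that reason MSC are usually defined by the absence of the leukocyte antigen CD45 as well as by the presence of surface proteins such as CD44 and CD105.

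The side population arrays were dim. Their median spot intensities, recovered from the deposited log2 values as whole numbers, were 15 and 22, against 88, 173 and 78 for MSC. A repeated lowest-range value, taken as a fill for spots without usable signal, stood at 13.8% and 9.93% of side population probes and at 11.3%, 4.52% and 10.8% of MSC probes, so the groups overlapped in this share. Across genes, which are not independent replicates, the side population pair had a Pearson correlation of 0.748, and MSC pairs had 0.935 to 0.942. The side population arrays differed from each other by more than 2 log2 units for 33.4% of genes, against 10.6% to 12.1% between MSC arrays. Levels below are log2 values after quantile normalisation, centred near 0 on each array. A difference is the side population mean minus the MSC mean in log2 units, with its SE, from a limma model of all 16 arrays. The model uses a single spread per gene for all groups, so the SE does not fully carry the side population pair's wider gap. Calls were made at a Benjamini-Hochberg adjusted p under 0.05 over the 17710 genes.

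In this comparison 3137 genes were called, 17.7% of those tested. Of them, 1251 genes (7.06%) were higher and 1886 genes (10.6%) lower in side population cells. The median difference over all genes was 0.13. Of all genes, 9277 (52.4%) had both side population arrays above or below every MSC array, and this held for 3131 of the 3137 called genes. The split of calls depended on the scaling. Called genes were 60.1% lower here, 32.5% lower when only array medians were aligned, with the median of all genes then at 1.19, and 70.7% lower with the deposited values unchanged. Of the genes called lower, 1365 had both side population spots under an intensity of 100. Of the genes called higher, 561 had every MSC spot under 100. For the genes of both kinds the size depends on the floor, and the call can depend on it too. Of the genes called lower, 111 had both side population spots at the fill value, and of those called higher, 18 had every MSC spot there.

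Among the called genes without overlap or complete fill, the 8 highest above MSC were Dpt, Tmem100, Mfap4, C7, Angptl1, Il33, Tbx20 and Mfap5. Dpt encodes dermatopontin, a matrix protein that binds decorin. It read 8.02 and 7.95 in side population cells against -5.50, -3.05 and -5.50 in MSC. The 2 groups lay far apart, with 2 of the 3 MSC spots at the fill value. The difference was 12.66 ± 1.40 (SE, adjusted p = 6.78e-05), and 8.06 when all values below the array median were raised to it. Tmem100, a membrane protein gene of vessels, had a difference of 11.67 ± 1.10 (adjusted p = 2.16e-05), and 5.39 with values raised to the median. Raised in this way, the differences of Mfap4, C7, Angptl1, Il33, Tbx20 and Mfap5 were 5.88 to 7.08, so the order of these genes depends on the floor. Mfap4, Mfap5 and Fbln1 encode proteins of elastic fibres. Their differences were 11.61 ± 1.86, 9.95 ± 1.21 and 7.84 ± 0.99. C7, a complement component, stood at 11.36 ± 1.12, although its other probe gave 6.49. Angptl1, an angiopoietin-like secreted factor, was higher by 10.76 ± 1.32. Il33, an alarmin cytokine of stromal and endothelial nuclei, was higher by 10.42 ± 1.99.

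Of 37 measured fibroblast and matrix genes, 13 were called higher and 0 lower, against 7.06% and 10.6% of all genes. The median difference was 1.92 against 0.13 for all genes. Over the alternatives 10 to 22 were higher and 0 to 1 lower, the most higher with medians aligned. Of the 37 differences, 31 were above 0. Several called members were bright in side population cells, and others, such as Col3a1 (4.11 and 4.39), lay lower. Dcn, which encodes the proteoglycan decorin, read 9.14 and 9.03 there and 4.57, 4.62 and 2.24 in MSC. The difference was 5.28 ± 0.86 (adjusted p = 0.00105), and no array overlapped. Pi16, a secreted protein gene that marks a widespread class of adventitial fibroblasts, was chosen after its values were seen. It stood at 8.19 and 8.02 in side population cells and at -0.68, -1.12 and -1.22 in MSC, a difference of 9.11 ± 0.64 (adjusted p = 3.31e-06). Col3a1 and Col15a1, chain genes of collagens III and XV, were higher by 6.08 ± 0.76 and 6.96 ± 0.79. Tcf21, the transcription factor of resident cardiac fibroblasts, was higher by 8.22 ± 1.75 (adjusted p = 0.00575). It read 3.38 and 4.37 in side population cells, with 1 MSC spot at the fill value. With values raised to the median its difference was 3.95.

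The matrix genes did not all separate the groups. Col1a2, a chain of collagen I, read 5.48 and 5.65 in side population cells and 5.69, 5.16 and 4.65 in MSC, so the groups overlapped (difference 0.40 ± 1.07, adjusted p = 0.83). Col1a1, the partner chain, differed between the side population arrays themselves, at -2.13 and 3.53, and its difference of -2.54 ± 1.13 did not pass (adjusted p = 0.136). Without side population replicate 2 it would have been called lower (adjusted p = 0.000283). Pdgfra, the platelet-derived growth factor receptor of fibroblasts, showed the reverse split. It read 6.46 and 0.42 in side population cells and 4.88 to 5.49 in MSC. Its difference of -1.64 ± 1.26 did not pass (adjusted p = 0.396), but without side population replicate 1 it did (adjusted p = 0.00398). For these genes the value rests on which array is used.

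**Figure D1:**
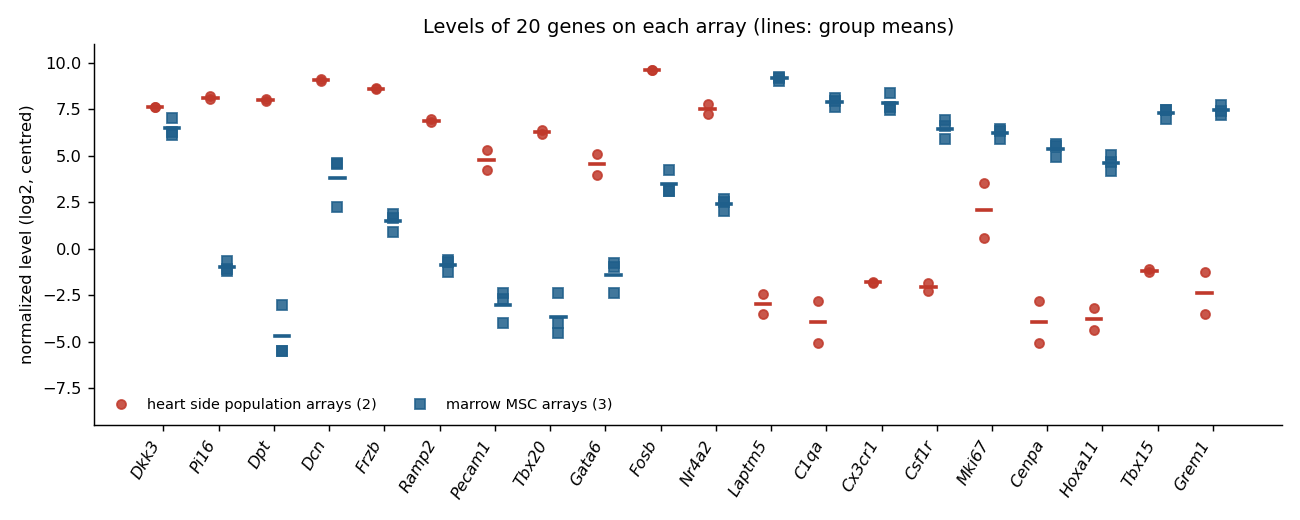
Normalized log2 level (vertical axis) of 20 genes on the 2 heart side population arrays (circles) and the 3 marrow MSC arrays (squares), with a line at each group mean. Dkk3 lies high in both groups, matrix, heart and immediate early genes lie higher in side population cells, and Laptm5, C1qa, cell cycle genes and Hoxa11 lie higher in MSC.

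Several Wnt signalling genes were higher, among them antagonists and receptors. Wnt ligands bind Frizzled receptors with LRP co-receptors, and secreted antagonists of the SFRP, DKK and WIF families hold the ligands or co-receptors back. Dkk3, a divergent member of the Dickkopf family that is abundant in heart stroma, read 7.60 and 7.60 in side population cells and 7.02, 6.10 and 6.27 in MSC. Both side population arrays lay above every MSC array, but the difference of 1.14 ± 0.83 did not pass (adjusted p = 0.371). Its raw intensities, 13511 and 17975 against 16825, 11370 and 7692, overlapped. Dkk3 was thus high in both populations, and 2 of 17 alternative settings called it. In the other groups its mean level was 6.81 in heart Sca1 cells, 5.82 in cardiomyocytes, -3.52 in heart c-kit cells and -4.70 in marrow c-kit cells.

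Of 65 measured Wnt genes, 11 were called higher and 1 lower, against 7.06% and 10.6% of all genes. The median difference was 1.35. The count of higher members ranged from 6, with array weights, to 19, with medians aligned, and without side population replicate 2 there were 3 lower members. Among the antagonists, Frzb (sFRP3) read 8.60 and 8.61 in side population cells and 1.63, 0.91 and 1.85 in MSC. The groups were far apart on bright spots in side population cells, and the difference was 7.14 ± 0.89 (adjusted p = 0.000153). Wif1, which binds Wnt ligands, was higher by 4.44 ± 0.66 and Sfrp1 by 5.04 ± 1.13. The call of Sfrp1 was lost without side population replicate 2 (adjusted p = 0.0691). Sfrp2 was bright in both groups, at 8.19 and 8.23 against 3.95, 4.05 and 5.39, and its difference of 3.75 ± 1.55 did not pass (adjusted p = 0.112). Apcdd1, a membrane antagonist, was higher by 8.76 ± 0.91 with 2 of 3 MSC spots at the fill value, and by 3.44 with values raised to the median, where Frzb stayed at 7.14. Among receptors, Fzd4 and Fzd6 were higher by 6.35 ± 1.08 and 2.79 ± 0.82. Fzd6 lost the call when any of the 5 arrays except MSC replicate 2 was left out (adjusted p = 0.0709 to 0.111). Of the ligands, Wnt2b was higher by 3.66 ± 0.83, not called without side population replicate 1 (adjusted p = 0.0958), and Wnt5b was lower (-4.82 ± 0.75), the latter at intensities of 1 and 4 in side population cells. With values raised to the median Wnt5b was not called (adjusted p = 0.267). Axin2, a common transcriptional target of the canonical pathway, was at 1.07 and 1.22 against 1.15, 1.28 and 0.76, so the arrays overlapped.

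Some transcription factors of heart identity were higher on the side population arrays. Of 15 measured cardiac transcription factors, 5 were called higher and 0 lower, against 7.06% and 10.6% of all genes. The median difference was 2.16. Tbx20, a T-box factor of heart chamber development, read 6.40 and 6.17 in side population cells and -2.42, -4.57 and -4.02 in MSC, a difference of 9.95 ± 1.50 (adjusted p = 0.000586). Hand2, Gata6 and Gata5, factors of the embryonic heart and its mesenchyme, were higher by 7.07 ± 1.25, 5.93 ± 0.76 and 4.73 ± 0.80. Gata5 lay at intensities of only 22 and 39 in side population cells. Mef2c was higher by 2.16 ± 0.64 (adjusted p = 0.0321), a call lost whichever of the 5 arrays was left out (adjusted p = 0.064 to 0.126). Gata4, at 2.94 and 3.04 against 1.23, 1.91 and 1.03, did not pass (adjusted p = 0.266). Nor did Tbx5 (2.23 ± 0.97, adjusted p = 0.129) or Isl1 (0.76 ± 1.16).

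Genes of the contractile apparatus were called at about the shares of all genes. Of 20 measured sarcomere and cardiomyocyte genes, 2 were called higher and 2 lower (7.06% and 10.6% over all genes), with a median difference of 1.36 and 14 of 20 above 0. The counts were 4 and 1 without side population replicate 1, and also with medians aligned. Without side population replicate 2 they were 3 and 1, and the median was 0.16, near the 0.15 of all genes. Tnnt2, cardiac troponin T, read 6.13 and 5.76 against 0.12, -1.26 and 2.51 (difference 5.49 ± 1.10, adjusted p = 0.00401; 0.0713 with array weights), and Xirp1, an actin-binding protein gene of striated muscle, was higher by 5.74 ± 0.73. Tnni3, cardiac troponin I, was lower, with a difference of -1.99 ± 0.60 at intensities of 13 and 25, and lost the call whichever of the 5 arrays was left out (adjusted p = 0.0591 to 0.142). Ankrd1, a cardiac repeat protein gene induced by stretch, was at the fill value on both side population arrays, and its value of -6.13 ± 1.07 has no measured size on that side. Actc1, cardiac actin, read -3.18 and -5.50 against -5.50, 1.38 and -3.45 and did not separate. Of 14 measured epicardial and mesothelial genes, 2 were called higher. They were Aldh1a1, a retinaldehyde dehydrogenase (9.16 ± 1.41), and Sema3d, a guidance factor (5.09 ± 0.82). Wt1 and Tbx18, the classic epicardial factors, did not pass (adjusted p = 0.0556 and 0.0581). Without MSC replicate 3 Wt1 would have been called (adjusted p = 0.0248).

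Some endothelial genes were higher. Of 31 measured members, 6 were called higher and 2 lower, against 7.06% and 10.6% of all genes. The median difference was 1.11, and 25 of the 31 differences were above 0. Pecam1, which encodes the adhesion protein CD31, read 4.23 and 5.32 in side population cells and -2.69, -2.42 and -4.02 in MSC, a difference of 7.82 ± 1.25 (adjusted p = 0.0009). Ramp2, a partner of the adrenomedullin receptor, was higher by 7.74 ± 0.65 (adjusted p = 1.14e-05). Sox7, Tek, the angiopoietin receptor gene, and Ptprb were higher by 7.19 ± 0.91, 7.05 ± 0.76 and 6.59 ± 0.96. With values raised to the median Ptprb was not called (adjusted p = 0.0888). Cd34, shared with fibroblasts and progenitors, was higher by 4.34 ± 0.62. The defining endothelial genes Cdh5 and Kdr did not pass. Cdh5, VE-cadherin, lay near the floor in both groups, at -2.83 and -2.03 against -3.21, -2.84 and -4.37. Kdr, a receptor for vascular endothelial growth factor, read 1.66 and 1.42 against 0.65, 2.00 and 0.97. Vwf was lower, with a difference of -5.36 ± 1.29, with spot intensities of 1 and 7, and this call was lost without side population replicate 1 (adjusted p = 0.103). The mean level of the list was 1.61 and 1.46 on the side population arrays, 1.45 to 4.65 in heart Sca1 cells and -0.31 to 0.00 in MSC. Its part in the matrix and heart gene results was not tested.

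Of 14 measured smooth muscle and pericyte genes, 3 were called higher and 1 lower, against 7.06% and 10.6% of all genes. Rgs5, a pericyte regulator of G-protein signalling, read 6.47 and 6.06 against 0.75, 2.07 and 1.47 (difference 4.84 ± 0.74), and Des, desmin, was higher by 4.40 ± 0.64. Both kept the call under every one of the 17 alternatives. Tagln, a smooth muscle actin-binding protein gene, was lower, with a difference of -7.28 ± 2.01, with 1 side population spot at the fill value, and lost its call when any of the 5 arrays except MSC replicate 3 was left out (adjusted p = 0.0521 to 0.12). Acta2 was bright in both groups, and its difference of -2.66 ± 0.98 did not pass (adjusted p = 0.0764).

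Genes of macrophages and other leukocytes were higher in MSC. Of 37 measured members of this list, 0 were called higher and 34 lower in side population cells, with a median difference of -5.66. The background for lower calls was 10.6%. Over the alternatives 24 to 35 members were lower and 0 higher. Laptm5, a lysosomal membrane protein gene of blood cells, read -2.46 and -3.50 in side population cells and 9.18, 9.25 and 9.02 in MSC. In raw intensity this was 5 and 4 against 65450, 65448 and 55442, so 2 of the 3 MSC spots were near the ceiling of a 16-bit scanner. The difference was -12.13 ± 0.79 (adjusted p = 1.97e-06), and -9.22 with values below the median raised to it. Laptm5 was also lower than in heart Sca1 cells, with a difference of -6.30 ± 0.79 (adjusted p = 0.000467; 6.83% of genes were called in that comparison).

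Ptprc, which encodes CD45, read -0.35 and -2.27 in side population cells and 6.71, 7.53 and 6.91 in MSC. The MSC spots had intensities of 13621, 27954 and 12162, so the leukocyte antigen was bright on every array of a population that is defined by lacking it. The difference was -8.36 ± 1.05 (adjusted p = 0.000166), while its other probe gave -0.70. C1qa, a chain of complement C1q made by tissue macrophages, was lower, with a difference of -11.83 ± 2.00 (adjusted p = 0.00134). Cx3cr1, the fractalkine receptor gene, read -1.83 and -1.79 against 8.39, 7.60 and 7.43 (difference -9.62 ± 1.22). Csf1r, the receptor gene on which macrophage survival depends, was lower, with a difference of -8.50 ± 1.95, and was not called with array weights (adjusted p = 0.0734). Adgre1, which encodes the macrophage antigen F4/80, was lower, with a difference of -9.06 ± 2.17, a call lost without side population replicate 2 (adjusted p = 0.0991). Cd68 was lower, with a difference of -9.19 ± 1.02. Ctss, cathepsin S, was lower, with a difference of -9.81 ± 1.37. Itgam, which encodes CD11b, was lower by less, with a difference of -2.51 ± 0.78 (adjusted p = 0.0411), a call lost whichever of the 5 arrays was left out (adjusted p = 0.0678 to 0.148). The 3 members not called were Cd48, Fcgr1 and Ncf1. Cd48 would have been called without side population replicate 2 (adjusted p = 0.0127).

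**Figure D2:**
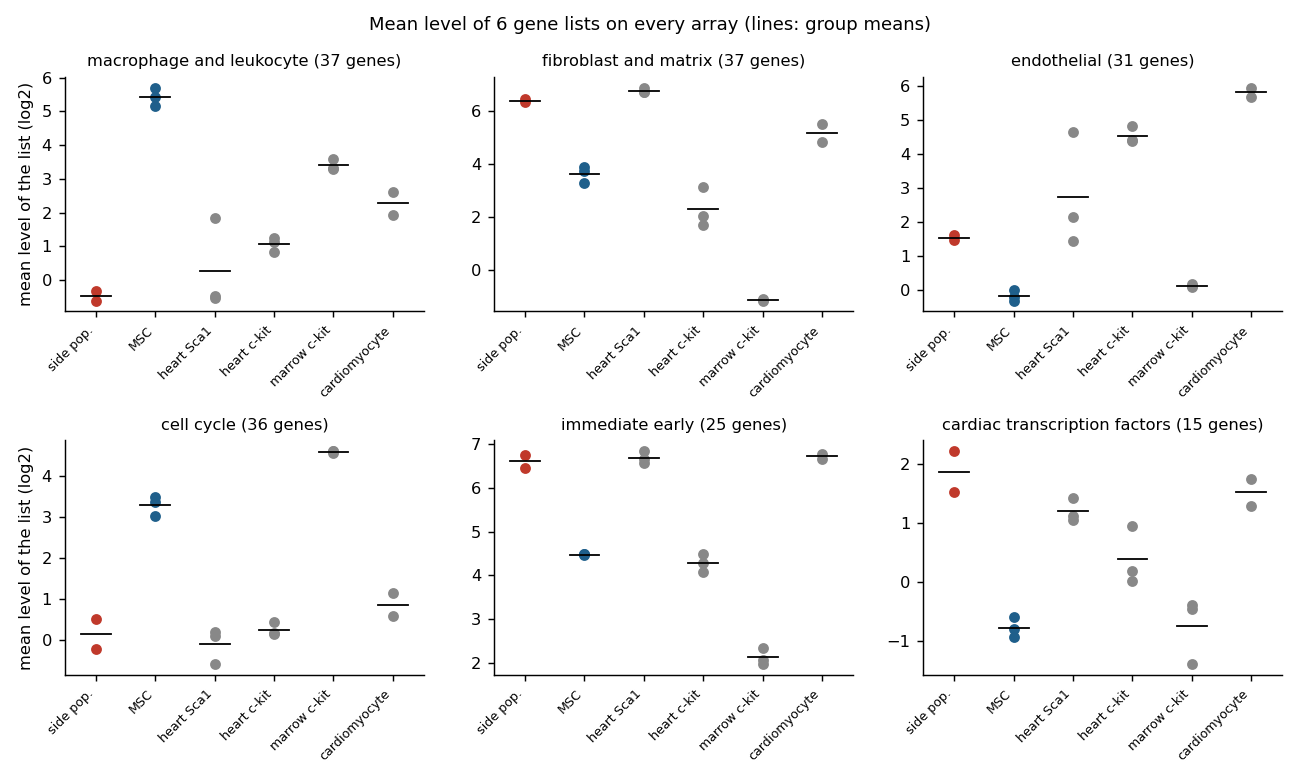
Mean log2 level of all measured members of 6 gene lists (vertical axis) on every array of the 6 groups, with a line at each group mean. The macrophage and leukocyte list lies at 5.15 to 5.70 on the MSC arrays and at -0.61 and -0.32 on the side population arrays, and the fibroblast and matrix list lies higher on side population than on MSC arrays.

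The whole macrophage and leukocyte list had a mean level of 5.44, 5.70 and 5.15 on the 3 MSC arrays. On the side population arrays it was -0.61 and -0.32, close to heart Sca1 replicates 1 and 2 (-0.47 and -0.52) and below replicate 3 (1.84). Against heart Sca1 cells 0 members were higher and 2 lower, where 6.83% of all genes were called. Some genes listed as stromal or MSC markers were bright on the MSC arrays too. On them Pdgfrb read 5.92, 5.66 and 6.34, and Cxcl12, the niche chemokine, read 5.74, 6.45 and 5.99. Cd44 read 7.75, 8.44 and 8.24 and Grem1 7.41, 7.20 and 7.74. Other MSC markers were low there, such as Lepr (0.04, -1.03 and -0.68) and Sp7 (-1.91, -2.84 and -3.03). The whole MSC marker list had a mean level of 3.05, 2.99 and 3.01 on these arrays. The chosen genes do not give the makeup of the culture. In bulk samples of this kind, fewer cells of a type and less RNA per cell cannot be told apart. The part of macrophage RNA in the other differences was not tested.

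Promoters of macrophage genes are shown because the members of this list moved together. PU.1, the product of Spi1, is the leading transcription factor of the lineage and binds purine-rich sites with a GAGGAA core. Spi1 itself read 1.39 and 0.83 in side population cells and 4.95, 5.07 and 4.65 in MSC, a difference of -3.79 ± 0.73 (adjusted p = 0.0031). The letters GAGGAA were searched on both strands in the 250 bases before the start of each gene, in RefSeq promoters of assembly GRCm38.p6. Of 23 macrophage and leukocyte genes called lower with a promoter entry, 13 (56.5%) held the letters, and 3184 of 13980 promoters of tested genes (22.8%) did so. A match describes the sequence and is not a measured binding site. The 150 bases before the start of 4 of these genes are printed 5' to 3' on the gene's strand. The match on either strand is in capitals. Only genes with a match within those 150 bases were eligible, and genes on some chromosomes were left out. The 4 with the lowest differences were taken, so the stretches do not represent the list.
Laptm5, chr4:130913166-130913315, plus strand: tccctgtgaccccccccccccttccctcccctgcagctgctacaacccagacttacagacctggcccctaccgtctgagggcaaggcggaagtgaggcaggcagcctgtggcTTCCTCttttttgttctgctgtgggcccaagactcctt
Mrc1, chr2:14229264-14229413, plus strand: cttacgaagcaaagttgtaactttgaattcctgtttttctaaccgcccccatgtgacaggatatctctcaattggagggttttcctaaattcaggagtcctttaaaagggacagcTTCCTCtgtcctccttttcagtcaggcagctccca
C1qb, chr4:136886201-136886350, minus strand: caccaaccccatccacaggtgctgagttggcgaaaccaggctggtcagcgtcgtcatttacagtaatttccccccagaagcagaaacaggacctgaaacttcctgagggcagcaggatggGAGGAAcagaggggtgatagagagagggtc
Clec7a, chr6:129472780-129472929, minus strand: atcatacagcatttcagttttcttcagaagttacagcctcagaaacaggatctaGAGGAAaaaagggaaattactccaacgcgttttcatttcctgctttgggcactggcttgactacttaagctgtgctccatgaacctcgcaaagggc
In Laptm5 and Mrc1 the match lay on the opposite strand, in C1qb and Clec7a on the gene's own strand. Mrc1, the mannose receptor gene, was lower, with a difference of -8.48 ± 1.44. C1qb, the B chain of complement C1q, was lower, with a difference of -8.23 ± 1.44. Clec7a, the receptor dectin-1 for fungal glucans, was lower, with a difference of -8.19 ± 1.36.

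Other genes of innate immunity lay with the macrophage genes. Of 27 measured innate receptors, 9 were called lower and 1 higher, against 10.6% and 7.06% of all genes. The median difference was -1.05. Clec4d, a C-type lectin gene, was at the fill value on both side population arrays and at 6.96, 7.60 and 6.96 in MSC. Lilrb4a, an inhibitory receptor gene, was lower, with a difference of -10.08 ± 1.93, as was Fcgr4, an Fc receptor gene, with a difference of -7.08 ± 0.81. Tlr4, the lipopolysaccharide receptor, was the member called higher. It read 3.59 and 5.60 against 1.92, 1.07 and 0.23 (difference 3.52 ± 0.90, adjusted p = 0.0164), and lost the call without MSC replicate 3 or side population replicate 2 (adjusted p = 0.0606 and 0.133). Plek, a major substrate of protein kinase C in platelets and leukocytes, and Cd5l, a macrophage scavenger protein, were among the 8 lowest called genes once genes at the fill value on both side population arrays were set aside. They were lower, with differences of -11.46 ± 1.30 and -10.35 ± 1.34, and the other probe of Plek gave -3.87.

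Of 46 measured chemokine and receptor genes, 5 were called higher and 9 lower, against 7.06% and 10.6% of all genes. With medians aligned the counts were 9 and 7, and with array weights 1 and 4. Ccl4, a chemokine of activated macrophages, read -5.06 and -2.56 against 7.34, 6.93 and 6.12 (difference -10.60 ± 1.94, adjusted p = 0.00225). Ccl3 and Ccl5 were lower, with differences of -5.13 ± 1.37 and -5.60 ± 1.56, both lost without side population replicate 1 (adjusted p = 0.123 and 0.202). Ccl3 also lost its call without MSC replicate 1 or 2 (adjusted p = 0.0504 and 0.0503), and Ccl5 without MSC replicate 2 or 3 (adjusted p = 0.0602 and 0.0651). The higher members were Cxcl10, Cxcl1, Ackr4, Ccl20 and Ccr8. Without side population replicate 1, Cxcl10 and Ccl20 were not called (adjusted p = 0.0533 and 0.0656). Ccl20 and Ccr8 each had 2 of 3 MSC spots at the fill value. The difference of Ccl20 was 3.98 here, 0.86 with values raised to the 30th percentile and 0 with values raised to the median (adjusted p = 1). That of Ccr8 was 4.68 here and 0.47 with values raised to the median. Cxcl1, a neutrophil attractant, read 8.55 and 8.29 against 6.20, 6.08 and 5.89 (difference 2.36 ± 0.77, adjusted p = 0.0485), and was not called whichever of the 5 arrays was left out (adjusted p = 0.0964 to 0.154). Ackr4, a scavenging receptor of stromal cells, was higher by 4.60 ± 0.93. Il6, a cytokine gene chosen after its values were seen, was higher by 7.85 ± 1.83, with adjusted p = 0.0529 without side population replicate 1. Without MSC replicate 2 the count of lower members was 5, and without side population replicate 1 the counts were 2 higher and 5 lower.

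The call of lysosomal genes depended on the scaling. Of 37 measured, 0 were called higher and 7 lower, against 7.06% and 10.6% of all genes, with a median of -1.03. With medians aligned 1 was lower and the median became 0.66. Mcoln1, a lysosomal calcium channel gene, read 3.15 and 2.58 against 6.82, 7.08 and 6.55 (difference -3.95 ± 0.58, adjusted p = 0.000463), and was not called with medians aligned (adjusted p = 0.0661). Without MSC replicate 2 or 3 the count fell to 3 or 4. Markers of other blood cells were called at about the share of all genes or less. In the neutrophil list 1 of 13 members was called (Mpo, higher by 2.21 ± 0.69), in the mast cell list 1 of 10 (Cpa3, 3.40 ± 0.99), against 7.06% of all genes called higher. Mpo lost its call when any of the 5 arrays except side population replicate 2 was left out (adjusted p = 0.0641 to 0.368), and Cpa3 whichever of the 5 was left out (adjusted p = 0.0566 to 0.106). With limma, 0 of 16 lymphocyte genes and 0 of 8 erythroid and platelet genes were called. At an unadjusted p under 0.05 there were 4 and 3, where 5710 of all 17710 genes passed that limit. With medians aligned 2 lymphocyte genes and 2 neutrophil genes were called higher, where 3460 genes were called in all. With values raised to the 30th percentile 3 neutrophil genes were called higher, where 3673 genes were called in all. The counts of these lists thus depend on the setting.

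Some Hox genes were lower in side population cells. Of 38 measured Hox genes, which encode position along the body axis, 8 were called lower and 2 higher, against shares over all genes of 10.6% and 7.06%. With medians aligned the counts were 5 and 5 and the median turned from -0.41 to 0.63. Without side population replicate 2, 4 were lower. Hoxa11, a gene of the middle limb segment, read -3.18 and -4.38 in side population cells and 4.67, 4.15 and 5.01 in MSC, a difference of -8.39 ± 1.09 (adjusted p = 0.000202). Hoxa7, Hoxc6 and Hoxc10 were lower, with differences of -7.28 ± 1.20, -6.47 ± 1.05 and -6.46 ± 1.10. Hoxd3 and Hoxd11 were the higher ones, by 2.94 ± 0.68 and 3.20 ± 0.89. Both had spot intensities under 100 on all 5 arrays, and both lost the call without side population replicate 1 (adjusted p = 0.0594 and 0.0543). Hoxd11 also lost it without side population replicate 2 or MSC replicate 1 or 2 (adjusted p = 0.0584 to 0.108).

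**Figure D3:**
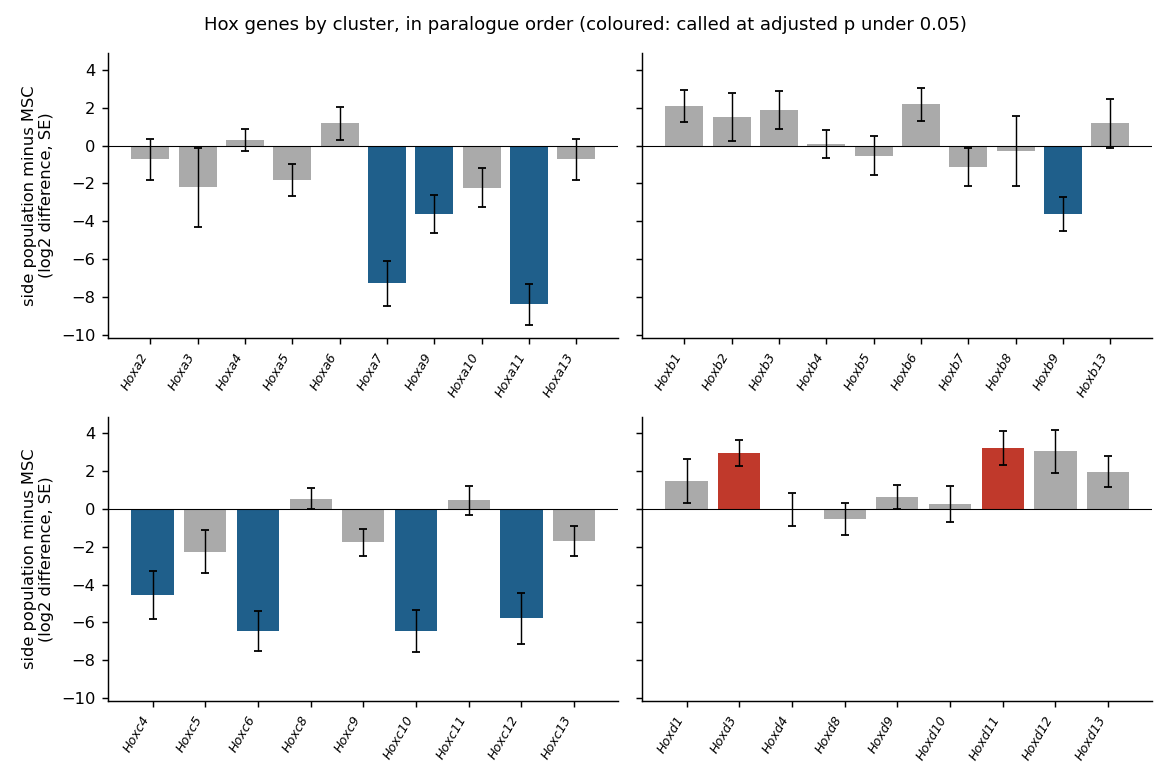
Log2 difference of each measured Hox gene, side population minus MSC (vertical axis, bars with SE), by cluster and in paralogue order; coloured bars were called at an adjusted p under 0.05. The 8 genes called lower lie in clusters A, B and C and the 2 called higher in cluster D.

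Tbx15 and Shox2, limb and skeletal regulators chosen after their values were seen, were lower as well. Tbx15 read -1.26 and -1.13 against 7.47, 6.98 and 7.42, a difference of -8.49 ± 0.64 (adjusted p = 5.42e-06). It was called under all 17 alternatives and was also lower than in heart Sca1 cells (-3.61 ± 0.64, adjusted p = 0.00573). Shox2 was lower, with a difference of -8.48 ± 1.10 from MSC. Hoxa11, by contrast, was near the floor in both heart populations, and its difference from heart Sca1 cells did not pass (0.54 ± 1.09, adjusted p = 0.807).

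Of 23 measured MSC marker genes, 3 were called higher in side population cells and 5 lower, against 7.06% and 10.6% of all genes. With medians aligned the counts were 5 and 3. Grem1, a BMP antagonist of skeletal stem cells, read -1.26 and -3.50 against 7.41, 7.20 and 7.74 (difference -9.83 ± 1.27, adjusted p = 0.0002). Spp1, osteopontin, a protein of bone matrix and of macrophages, was at the fill value on both side population arrays and at 8.51, 8.72 and 8.56 in MSC. Ibsp, bone sialoprotein, was lower, with a difference of -4.19 ± 0.96, a call lost without side population replicate 1 (adjusted p = 0.098). Cd44 and Itga5 were lower, with differences of -2.39 ± 0.57 and -2.68 ± 0.83. The difference of Cd44 was -0.61 with medians aligned (adjusted p = 0.652). On the scale as deposited it was -1.71 (adjusted p = 0.186). Cd44 was not called without side population replicate 2 (adjusted p = 0.0503), nor Itga5 whichever of the 5 arrays was left out (adjusted p = 0.0769 to 0.119). Vcam1, Angpt1 and Lepr were higher. Vcam1, an adhesion molecule, was among the brightest spots, at 9.28 and 9.33 against 5.90, 6.59 and 6.56 (difference 2.95 ± 0.74, adjusted p = 0.0141). Its call was lost without either side population array or MSC replicate 1 (adjusted p = 0.0518 to 0.0533). Lepr, higher by 1.91 ± 0.62, had another probe at 0.07 and lost the call whichever of the 5 arrays was left out (adjusted p = 0.0589 to 0.2). Eng, which encodes CD105, read 3.38 and 2.91 against 2.81, 2.57 and 2.55 and did not pass (adjusted p = 0.538). Leaving out a side population array reduced the lower count to 3, and leaving out MSC replicate 1 reduced the higher count to 1.

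Cthrc1 and Steap1, a secreted collagen-linked protein gene and a metalloreductase gene, were in the same set of 8. They were lower, with differences of -10.53 ± 1.50 and -10.88 ± 1.67, each with 1 side population spot at the fill value. Mtss1, an actin scaffold gene, was lower, with a difference of -10.41 ± 1.18, with another probe at -5.66.

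Many proliferation genes were lower in side population cells. Of 36 measured cell cycle genes, 0 were called higher and 17 lower, against 7.06% and 10.6% of all genes. The median difference was -3.06. Between 10 and 18 members were lower over the alternatives, the fewest with array weights, and 11 with medians aligned. Cenpa, the histone of the centromere, read -5.06 and -2.84 against 5.49, 4.93 and 5.61 (difference -9.30 ± 0.96, adjusted p = 4.3e-05). Mcm2, a subunit of the replicative helicase, was lower, with a difference of -7.45 ± 1.20. Bub1 and Mad2l1, of the spindle checkpoint, were lower, with differences of -6.10 ± 0.99 and -6.18 ± 1.07. Foxm1, the transcription factor of the mitotic genes, was lower, with a difference of -5.97 ± 1.43, a call lost without side population replicate 2 (adjusted p = 0.0922). Mki67, the proliferation antigen Ki-67, read 0.59 and 3.53 against 6.33, 5.88 and 6.41 (difference -4.15 ± 1.06, adjusted p = 0.0157), a call lost without side population replicate 1 (adjusted p = 0.158). The mean level of the list was -0.22 and 0.53 in side population cells, 3.03 to 3.49 in MSC and -0.57 to 0.21 in heart Sca1 cells. Of 11 measured inhibitors of the cycle, Gas1 was called, higher by 4.04 ± 0.55. Cdkn1a (p21) was bright in both groups, and its difference of 1.38 ± 0.55 did not pass (adjusted p = 0.0994).

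Immediate early genes, which respond within minutes to stimuli and to cell dissociation, were often higher. Of 25 measured, 12 were called higher and 0 lower, against 7.06% and 10.6% of all genes. The median difference was 1.91. The higher count was 7 with array weights. Fosb, a subunit of the AP-1 factor, had spots near the scanner ceiling on both side population arrays. It read 9.63 and 9.60 against 3.11, 3.09 and 4.23, a difference of 6.14 ± 0.76 (adjusted p = 0.000152). Nr4a2 and Nr4a3, orphan nuclear receptor genes, were higher by 5.12 ± 0.75 and 6.59 ± 1.07. Klf4 and Atf3 were higher by 3.22 ± 0.78 and 3.04 ± 0.56. Klf4 missed the threshold without side population replicate 1 (adjusted p = 0.0561). Fos and Egr1, the best-known members, were high in both groups. Fos read 7.72 and 8.01 against 5.39, 5.60 and 4.66 (difference 2.65 ± 0.86, adjusted p = 0.0472). Egr1 was higher by 1.91 ± 0.60 (adjusted p = 0.0418), with 1 side population spot within 5% of the scanner ceiling. Both calls were lost whichever of the 5 arrays was left out (adjusted p = 0.0777 to 0.143 for Fos and 0.0736 to 0.141 for Egr1). Btg2 had a difference of 4.80 ± 1.18 on the probe used and -0.73 on the other, and was not called without side population replicate 1 (adjusted p = 0.0748). The mean level of the list was 6.46 and 6.75 in side population cells, 6.57 to 6.84 in heart Sca1 cells and 4.46 to 4.48 in MSC. It was 6.78 and 6.65 in cardiomyocytes, 4.07 to 4.49 in heart c-kit cells and 1.97 to 2.33 in marrow c-kit cells. The part of cell isolation in this difference was not tested.

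**Figure D4:**
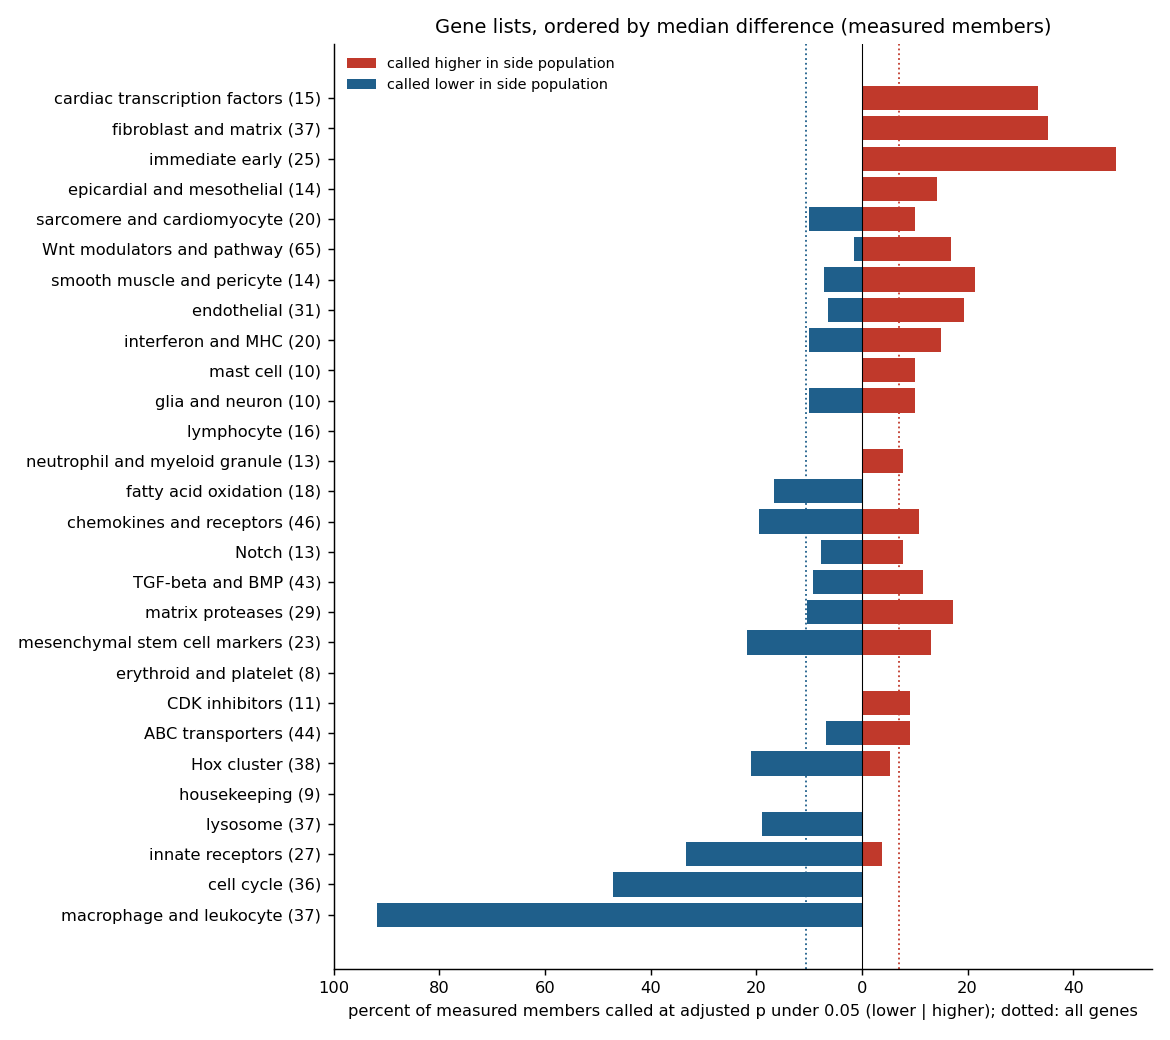
Percent of the measured members of 28 gene lists (number in brackets) called lower (bars to the left) or higher (bars to the right) in side population cells; dotted lines mark the shares over all genes, 10.6% lower and 7.06% higher. The macrophage and leukocyte list has the longest bar to the left and the immediate early list the longest to the right.

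The dye exporters by which side population cells are picked were not called against MSC. Abcg2 read 0.59 and 4.41 in side population cells against 3.62, 3.29 and 3.08 in MSC. The first lay below every MSC array and the second above, with raw intensities of 23 and 1323. The difference was -0.83 ± 0.87 (adjusted p = 0.546). Without replicate 2 the gene would have been called lower (adjusted p = 0.0183), and without replicate 1 the sign turned, at 1.08. Abcb1a and Abcb1b encode the P-glycoproteins that export many drugs. Abcb1a was at 1.36 and 3.57 against 0.79, 0.68 and 0.58 (adjusted p = 0.188). Abcb1b was at 2.47 and -1.13 against 2.25, 2.04 and 2.90 (adjusted p = 0.212), and would have been called without replicate 1 (adjusted p = 0.0142). The labelled sort could therefore not be checked by these transcripts.

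Of 44 measured ABC transporter genes, 4 were called higher and 3 lower, with a median of -0.08. Over all genes 7.06% were higher and 10.6% lower, so these counts are near the background. With medians aligned 9 were higher and 2 lower, and the median was 1.08. Abca8a, a member of the ABCA subfamily expressed in stroma, read 6.04 and 6.95 against -0.21, 0.27 and -0.27, a difference of 6.57 ± 0.57 (adjusted p = 1.38e-05). Its neighbour Abca9 was higher by 4.26 ± 0.94 (adjusted p = 0.081 with array weights). Abca6, of the same cluster, read -0.71 and 4.52, its other probes reached down to -1.38, and its call was lost without MSC replicate 2 or side population replicate 2 (adjusted p = 0.066 and 0.213). Abcg1, the cholesterol exporter of macrophages, was lower, with a difference of -7.57 ± 0.95 (adjusted p = 0.000167). Abcc3 was lower, with a difference of -6.97 ± 1.23. The third, Abcd2, had 1 side population spot at the fill value (difference -4.81 ± 1.26, and 0 with values raised to the median), and was not called without MSC replicate 1 or side population replicate 2 (adjusted p = 0.0536 and 0.0995). Without MSC replicate 2, 2 were higher, and without side population replicate 1 or 2, 6 or 5 were lower.

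Matrix proteases and TGF-beta and BMP genes had calls in both directions, against 7.06% higher and 10.6% lower over all genes. Of 29 measured matrix proteases, 5 were called higher and 3 lower, and with medians aligned 7 and 2. Adamts1, which cleaves proteoglycans, read 7.48 and 7.98 against 2.78, 2.55 and 2.23 (difference 5.21 ± 0.54, adjusted p = 4.39e-05). Adamts12 was higher by 5.44 ± 0.66 on the probe used and -1.44 on the other, and was not called with the mean over probes (adjusted p = 0.0949). Adam8, a protease of leukocytes, read 0.64 and 0.13 against 7.66, 7.26 and 7.22 (difference -7.00 ± 1.58, adjusted p = 0.00832). Without MSC replicate 1 the counts were 4 higher and 1 lower, and without MSC replicate 2 or 3 they were 3 and 1. Without side population replicate 1 they were 2 and 1, and without replicate 2 they were 3 and 4.

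Of 43 measured TGF-beta and BMP genes, 5 were called higher and 4 lower, with 9 and 2 when medians were aligned, 8 and 3 with cyclic loess and 0 and 3 with array weights. Inhbb, an activin subunit, read -3.18 and -2.03 against 2.79, 2.78 and 2.95 (difference -5.45 ± 0.66, adjusted p = 0.000126) and was also lower than in heart Sca1 cells (-5.37 ± 0.66, adjusted p = 0.000383). Acvr2a and Acvr2b, activin receptor genes, were lower, with differences of -5.20 ± 1.27 and -5.52 ± 1.59. Acvr2a lost its call without side population replicate 1 (adjusted p = 0.11), and Acvr2b whichever of the 5 arrays was left out (adjusted p = 0.0628 to 0.133). The higher members, among them Bmp4 (2.93 ± 0.83) and Tgfb3 (2.80 ± 0.87), depended on single arrays. Bmp4 was not called without side population replicate 2 or any MSC array (adjusted p = 0.0609 to 0.15), nor Tgfb3 whichever of the 5 was left out (adjusted p = 0.0574 to 0.142). Without MSC replicate 1 or side population replicate 2 the higher count was 0, and without MSC replicate 2 or 3 it was 1. The lower count was 2 without MSC replicate 1 or 3, and 1 without side population replicate 1. Of 13 measured Notch genes, 1 was called higher and 1 lower, near the shares of 7.06% and 10.6% over all genes. The ligand Jag1 was higher by 2.30 ± 0.59. Mfng, a modifier of the receptors at the fill value on both side population arrays, was lower. With values raised to the median Mfng was not called (adjusted p = 0.185). Jag1 was not called without side population replicate 2 or MSC replicate 1 or 3 (adjusted p = 0.0551 to 0.0742).

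Of 18 measured genes of fatty acid oxidation, 0 were called higher and 3 lower, against 7.06% and 10.6% of all genes. The split depended on the scaling, with 3 higher and 2 lower when medians were aligned, 3 and 3 with values raised to the 30th percentile and 2 and 3 with cyclic loess. Acsl1, which activates fatty acids, was lower, with a difference of -5.14 ± 1.03 (adjusted p = 0.114 with values raised to the median), as was Slc25a20, the carnitine carrier, with a difference of -3.20 ± 0.77, the latter not called without side population replicate 2 (adjusted p = 0.0624). Cpt2 had a difference of -7.25 ± 1.47, with intensities of 1 and 80 on the side population arrays. The interferon and MHC list had 3 of 20 called higher and 2 lower. Irf8, a factor of the macrophage lineage, was lower, with a difference of -5.06 ± 1.24, and Gbp2 was higher by 2.93 ± 0.74. Without side population replicate 2 neither was called (adjusted p = 0.14 for Irf8 and 0.0725 for Gbp2). With limma, 0 of 9 measured housekeeping genes were called. Of these, 2 had an unadjusted p under 0.05, as had 5710 of all 17710 genes. With values raised to the 30th percentile or to the median 3 were lower. Their median difference was -1.01, and 0.52 with medians aligned. Actb read 7.44 and 7.43 against 8.98, 8.70 and 8.96 (difference -1.45 ± 0.52, adjusted p = 0.0694).

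Heart Sca1 cells were set beside the same genes, in a comparison that shares the side population arrays. Dpt, Frzb and Pi16 differed from heart Sca1 cells by 0.06 ± 1.40, 0.96 ± 0.89 and -0.38 ± 0.64, and none passed, which does not show that the levels were equal. In that comparison 6.83% of all genes were called. The fibroblast and matrix list had 0 of 37 members higher and 1 lower there, and the 15 cardiac transcription factors had 0 in either direction. With so low a share over all genes, these counts do not show that the lists were alike. Besides Laptm5, Tbx15 and Inhbb, genes called there included Wnt5b, lower, with a difference of -5.41 ± 0.75, and Xirp1, higher by 3.57 ± 0.73. Tnni3 was lower than in heart Sca1 cells, at -5.43 ± 0.60 (adjusted p = 0.000208).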

How the data were processed

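The submitters deposited log2 values of Cy5 spots, centred on each array's mean (0.300 on MSC replicate 3); the centring was read from the values. Per the labels, RNA was amplified with a WT-Ovation Pico kit. Scanner settings and background correction are not stated in those sources. Spot intensities were recovered as whole numbers (100% of spots under 200 within 0.005). The 26423 probes of 16 arrays were quantile normalised. Of the probes, 20339 were named through a GRCm38.p6 table, and the probe with the highest mean stood for a gene (17710 genes, 2273 with several probes). limma 3.58.1 in R 4.3.3 fitted 6 group means with empirical Bayes (residual degrees of freedom 10, prior 3.81), with Benjamini-Hochberg adjustment over 17710 genes. Arrays and their number limit the precision.

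Named genes were Dkk3, Laptm5 and the sort genes, the 8 highest and 8 lowest called genes without overlap or complete fill, and up to 4 called members per list (2 where none was called). Others (Pi16, Tbx15, Shox2, Il6, Spp1, Clec4d and further list genes) were picked with their values already in view. Members and the 28 lists were chosen with earlier results of these data known. Missing list members were not used here. The procedure was run on simulated data with a single spread per gene for all groups and no fill values. That run could not test the effect of the wider side population gap or of the floor. Alternatives were other scalings, floors, filters, probe averaging, moderation, a replicate block, array weights, the 5 arrays alone and leaving out arrays.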

Additional observations from a re-analysis of the deposited data

How the results depend on the processing

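The count of 3137 called genes was 2610 to 3673 under the other scalings, floors, filters, probe averages and moderation options. The filters tested fewer genes, so their counts are not on the same base. The 2610 came from the 13345 genes above the fill value on all 5 arrays. It was 2423 with the 5 arrays alone and 1581 with array weights per group. Leaving out an array in turn gave 2020 to 2876, the lowest without MSC replicate 1. The cause was not tested. Of 147 named genes that were called, 79 kept the call under all 17 alternatives that could be run for them, and 0 turned sign with a call; 47 lost it with array weights, and 39 and 34 without side population replicates 1 and 2. Side population and MSC arrays share replicate numbers 1 and 2. Same-numbered deviations from the group means correlated at 0.0134 and 0.0480. With 2 side population arrays these deviations are exact opposites, so the values cannot show whether the numbers pair the arrays. With a replicate block 2739 genes were called. The medians of 4 of 28 lists changed sign with medians aligned. Low signal limits the size of differences where a group lay near the fill value.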
